A study of Rattus norvegicus with 10 samples.

Results

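A set of 22 genes was higher in the untransfected line than in all 4 transfected lines of HSC-2, a stellate cell line of rat liver. The members were chosen by their measured values on these arrays. A probe set belonged to the set when it carried 1 gene symbol, when both untransfected arrays read at least 2.5 times the highest of the 8 transfected arrays, and when both read at least 100 intensity units. The values met this rule in 39 probe sets, of which 28 had 1 symbol, 10 had no symbol and 1 had several. After 4 probe sets of 3 genes were left out by name, 24 probe sets of 22 genes remained, out of 14217 genes on the array with 1 symbol. Since the rule compared the untransfected arrays with all others, that difference is given below as a description without a test.

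The HSC-2 line comes from Wistar rats and was grown here in high-glucose DMEM with 10% foetal bovine serum. Total RNA of 5 lines was measured on Affymetrix rat arrays at passages 42 and 43, which gave 10 arrays. The untransfected cells and a line transfected with a scrambled sequence served as controls. Lines S1, S4 and S5 were transfected clones that overexpressed the microRNA miR-146a, and each was 1 clone. The growth conditions were the same for all groups, and the labels name no other treatment. No label says that the passages of a line were separate cultures, so p-values measure only the spread between passages, which may be technical. There was 1 untransfected line, so transfection, selection and the derivation of a line cannot be told apart in these genes. In RNA of whole cultures, fewer cells of a type and less RNA per cell cannot be told apart either.

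Stellate cells are the vitamin A-storing pericytes of the liver sinusoid. After injury and in culture they become myofibroblasts, which contract, lay down collagen and answer to sphingosine 1-phosphate, Notch ligands and inflammatory cytokines. By role, 4 members were genes of contraction and calcium signalling, 3 of the cytoskeleton and 5 of matrix and adhesion. Another 3, Enpep, Ggt5 and Ada, were grouped as enzymes. The rest were 2 ligands, 2 transcription factors, 2 genes of granules and vesicles, and Bean1, a membrane protein that binds a ubiquitin ligase.

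The labelled cell type was checked against stellate cell markers. Vim, a mesenchymal filament protein, read at least 21124 and Col1a1 at least 17936 on each of the 10 arrays, while Gfap and Reln lay between 28 and 42 units, near the lowest deposited value of 20. The summed level of 8 stellate markers was 47980 to 48200 in the untransfected line and 41210 to 49270 in the transfected lines. Most of this sum came from Vim and Col1a1, which read 23550 and 22328 on the untransfected array of passage 42. It therefore says little of the other stellate markers. None of the 8 passed limma at an adjusted p under 0.05, nor did any of 6 hepatocyte, 5 macrophage and leukocyte, 5 endothelial or 2 biliary markers. Ptprc, the pan-leukocyte phosphatase, reached at most 21.0 units. The summed level of 7 markers of portal fibroblasts, mesothelium and smooth muscle was 7033 to 7313 in the untransfected line against 2114 to 5587 in the transfected lines. Of these 7, Thy1 (log2 difference 3.61) and Lmod1 (1.45) were higher and Wt1 was lower (-1.11). Their part in the differences described below was not tested.

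The microRNA that the clones were made to overexpress is shown first, because it separates the clones from the scrambled line, with the seed (bases 2 to 8) in capitals. Its RefSeq entry lies at chr10:28350053-28350074 on the minus strand of GRCr8. The mature microRNA was not analysed here.

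rno-miR-146a-5p: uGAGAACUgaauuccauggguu

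Promoters are shown next for the 4 members that passed a test of passage described below. Each runs from 250 bases before to 50 bases after the start of the gene in RefSeq, 5′ to 3′ on the strand of the gene, in GRCr8. They lie at chr15:34462420-34462719 (minus strand) for Gzmb, chr2:220526169-220526468 (minus) for Enpep, chr3:144894834-144895133 (minus) for Jag1 and chr17:13945964-13946263 (minus) for S1pr3. Capitals mark matches on either strand to the TATA box TATAAA, the box CCAAT, the GC box GGGCGG, the AP-1 motif TGANTCA, the RBPJ core TGGGAA, and the CArG, EBF and NF-kB motifs, which were searched by pattern.

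Gzmb: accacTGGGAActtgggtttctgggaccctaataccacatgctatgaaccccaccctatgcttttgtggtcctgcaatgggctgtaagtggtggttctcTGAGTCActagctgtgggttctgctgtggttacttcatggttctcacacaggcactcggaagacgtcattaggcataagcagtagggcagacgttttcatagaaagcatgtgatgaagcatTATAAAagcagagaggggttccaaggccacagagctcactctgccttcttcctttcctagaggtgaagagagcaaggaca

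Enpep: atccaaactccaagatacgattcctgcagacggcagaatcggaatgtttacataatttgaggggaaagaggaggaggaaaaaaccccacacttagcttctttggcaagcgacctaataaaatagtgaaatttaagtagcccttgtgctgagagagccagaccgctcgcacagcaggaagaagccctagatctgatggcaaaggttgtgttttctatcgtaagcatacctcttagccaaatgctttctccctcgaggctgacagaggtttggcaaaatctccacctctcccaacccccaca

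Jag1: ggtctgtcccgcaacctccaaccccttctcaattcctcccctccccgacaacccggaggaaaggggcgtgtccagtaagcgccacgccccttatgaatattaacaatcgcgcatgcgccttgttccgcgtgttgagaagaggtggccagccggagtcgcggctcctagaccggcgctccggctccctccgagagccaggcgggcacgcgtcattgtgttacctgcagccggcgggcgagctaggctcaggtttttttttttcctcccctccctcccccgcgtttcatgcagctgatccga

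S1pr3: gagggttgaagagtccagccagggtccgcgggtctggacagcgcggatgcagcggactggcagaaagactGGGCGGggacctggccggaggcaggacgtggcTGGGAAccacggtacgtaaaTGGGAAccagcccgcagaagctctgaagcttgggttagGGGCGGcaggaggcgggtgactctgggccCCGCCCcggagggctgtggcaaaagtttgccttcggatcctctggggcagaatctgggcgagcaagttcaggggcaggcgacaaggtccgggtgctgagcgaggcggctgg

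The Gzmb window held a TATA box 30 bases before the start, an AP-1 match 151 bases before and the RBPJ core 245 bases before. S1pr3 held 3 GC boxes and 2 RBPJ cores, and the windows of Jag1 and Enpep matched none of the motifs searched. Of 22 members, 18 had a promoter entry. The TATA box was found in 5.56% of these (1 of 18) against 14.3% of the promoters of all 27457 genes in the table. CCAAT stood in 16.7% against 37.7%, the GC box in 33.3% against 34.9%, the RBPJ core in 33.3% against 25.1% and the AP-1 motif in 5.56% against 7.33%. The NF-kB motif stood in 16.7% (3 of 18, Il6, Arhgap44 and Fhod3) against 7.6%. In Il6 it began 68 bases before the start and overlapped an RBPJ core. The EBF motif and the CArG box of serum response factor were found in 0 of 18, against 0.841% and 1.64% of all. These are matches of letters in a fixed window and say nothing of binding.

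The base composition of the promoters, which the rule did not use, is given as a description. The median ratio of observed to expected CpG in the member promoters was 0.64, against 0.417 over all genes, and the median GC content was 63.3% against 52.3%. The members differed widely among themselves. Irag1 (0.16), Gzmb (0.165), Il6 (0.263) and Septin4 (0.282) had the lowest CpG ratios, while Jag1 (0.949) and Fbn2 (1.05) had the highest. The table of all genes includes those that are not expressed in these cells.

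**Figure D1:**
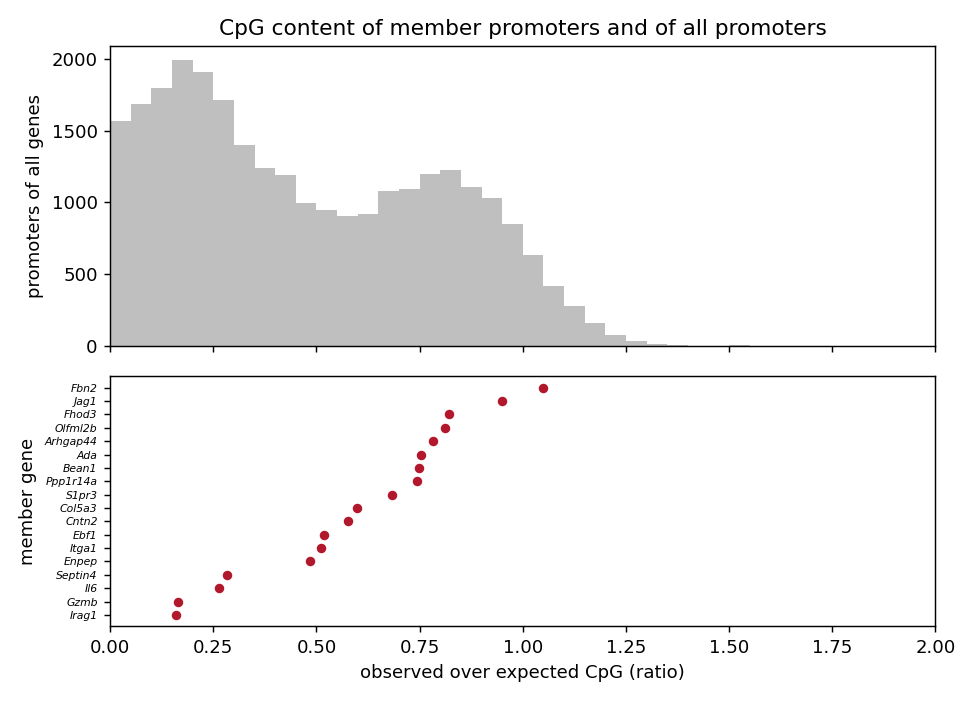
Ratio of observed to expected CpG (x axis) in the 300-base promoter window: the upper panel counts all 27457 genes in bins and the lower panel shows 1 point for each of the 18 members with an entry. The 4 members at the left, Irag1, Gzmb, Il6 and Septin4, lie between 0.16 and 0.282, and Fbn2 lies furthest right at 1.05.

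The size of the difference that defined the set varied among the members. The lower untransfected array stood above the highest transfected array by 2.52 to 13.5 times, with a median of 2.99. The mean of the untransfected arrays was 3.10 to 16.4 times the mean of the transfected arrays, with a median of 5.39. Among the 8 transfected arrays the highest stood above the lowest by 1.19 to 6.56 times, with a median of 2.29. The smallest spread was in Bean1, a gene at 43.8 to 52.0 units in all transfected lines, and the largest was in Gzmb. On the probe sets described, Arhgap44 was at the floor of 20 on 4 transfected arrays and Ebf1 on 2, and the second member probe set of Gzmb was at it on 1. The other members were listed above the floor on all transfected arrays, some of them barely, such as Il6 at 20.3 and Fbn2 at 21.9. Just inside the threshold lay Foxs1 (2.52 times), Ada (2.56) and Ebf1 (2.57). Just outside lay Ncald (2.44), a calcium sensor, Adarb1 (2.38), an RNA-editing deaminase, and Adgre5 (2.37), an adhesion receptor. Adarb1 lay outside because of the clones, which read 112 to 163 where the scrambled line read 85.6 and 89.2.

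**Figure D2:**
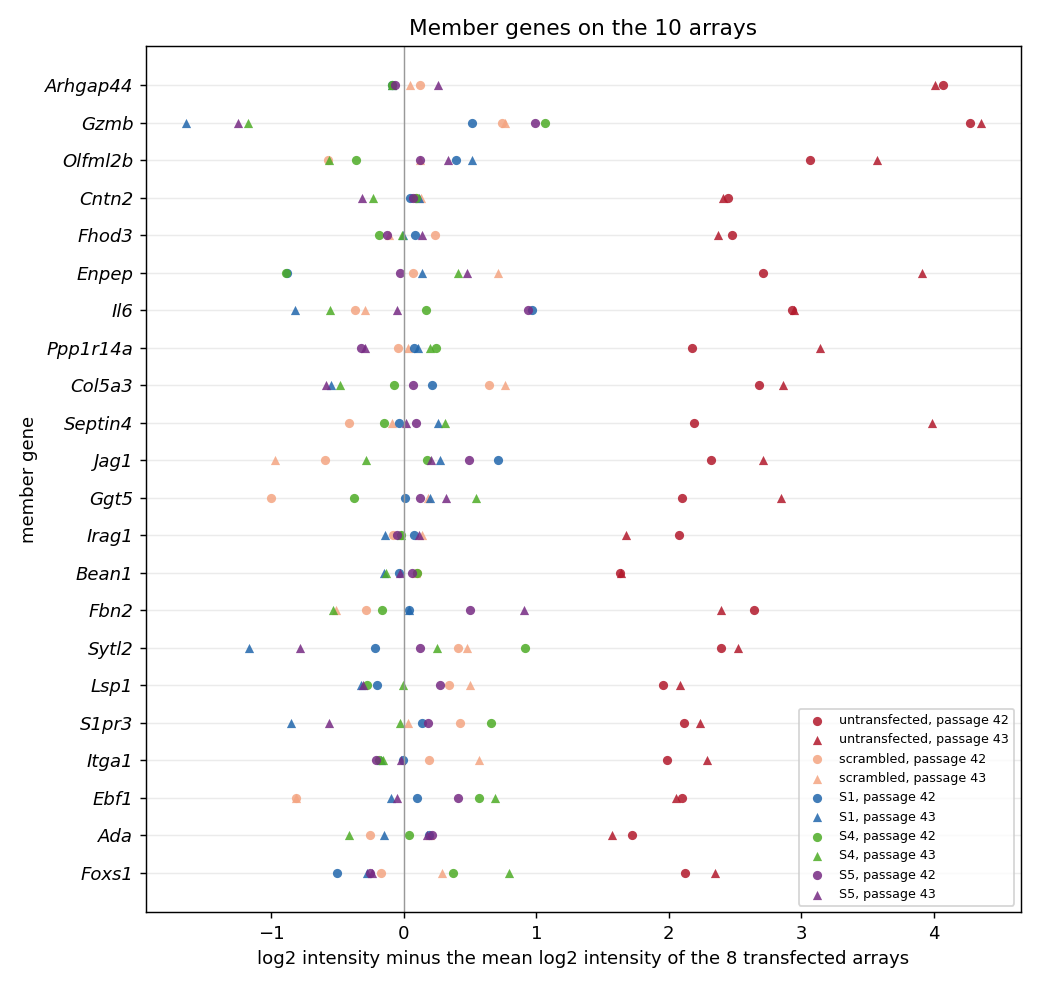
Log2 intensity of each of the 22 members (rows) on each of the 10 arrays, minus the mean of its 8 transfected arrays (x axis). Circles are passage 42, triangles are passage 43 and colours are the lines. The untransfected points, in dark red, lie to the right of all others because the rule required it, and the transfected points spread most widely in Gzmb.

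Among the contraction genes, Ppp1r14a encodes CPI-17, an inhibitor of myosin phosphatase that keeps smooth muscle contracted. It read 150.1 and 293 in the untransfected line at passages 42 and 43. All 8 transfected arrays lay between 26.6 and 39.3. S5 was the lowest line (26.6 and 27.2), and the scrambled line (32.2 and 33.99) lay between S5 and the clones S1 (35.1 and 35.9) and S4 (39.3 and 38.2). The clones did not differ from one another past the threshold (limma F test, adjusted p = 0.527), which was the lowest value of that test among the members. Irag1, a substrate of cGMP kinase that restrains calcium release from stores, read 600.3 and 454 in the untransfected line against 129 to 156 in the transfected lines. Fhod3, a formin that assembles actin in striated muscle, read 151 and 140.2 against 23.7 to 31.8.

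S1pr3, a sphingosine 1-phosphate receptor, read 2671 and 2897 in the untransfected line. The scrambled line read 828 and 632, S1 678 and 342, S4 974 and 603, and S5 700.5 and 417. The passage 43 array was the lower in all 4 transfected lines and not in the untransfected line. In the transfected lines S1pr3 fell by 0.70 on the log2 scale from passage 42 to 43 (SE 0.10, limma adjusted p = 0.0169), or 1.63-fold. The call was lost without any 1 clone array (adjusted p = 0.081 to 0.123), with no filter on low values (0.0786) and with the untransfected arrays included (-0.54, 0.0861).

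Septin4, a filament-forming GTPase found in quiescent stellate cells, read 321 and 1110.0 in the untransfected line. Its transfected arrays lay between 52.7 and 87.4. The difference between the untransfected passages, 1.79 on the log2 scale, was the largest passage difference of any member in that line. Arhgap44, a GTPase-activating protein, read 357 and 344 in the untransfected line. It lay at the floor on all 4 arrays of S1 and S4 and at 20.4 to 25.4 on those of S5 and the scrambled line. Lsp1, an F-actin-binding protein first found in lymphocytes, read 221 and 241 against 71.8 and 80.4 in the scrambled line. The 6 clone arrays read 45.4 to 68.8, all below the scrambled line, but the difference of 0.56 on the log2 scale did not pass (limma adjusted p = 0.0915).

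Of the matrix and adhesion genes, Col5a3 encodes a chain of collagen V, which sets the diameter of collagen fibrils. It read 2219 and 2519 in the untransfected line and 541 and 588 in the scrambled line. S1 read 401 and 237, S4 329 and 248, and S5 364 and 230.3. All 6 clone arrays lay below both scrambled arrays. The clone mean lay below the scrambled line by 0.94 on the log2 scale (SE 0.25), with a limma adjusted p of 0.0707, and 0.0126 when passage was entered as a replicate block.

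Itga1, the alpha chain of the collagen receptor alpha1beta1, had the same order of lines. It read 165 and 203 in the untransfected line, 47.3 and 61.5 in the scrambled line and 35.98 to 41.3 in the 6 clone arrays, again with no overlap. The clones were 0.50 lower on the log2 scale (SE 0.12, limma adjusted p = 0.0504, and 0.0259 with the replicate block).

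Fbn2, a microfibril protein of developing tissue, read 198 and 167 in the untransfected line. S5 read 44.9 and 59.6 and was the highest of the transfected lines. S1 read 32.7 and 32.6, S4 28.3 and 21.9, and the scrambled line 26.04 and 22.2. The range of 1.05 (log2) between the clone means did not pass the test of differences between clones (limma adjusted p = 0.653). Olfml2b, an olfactomedin-domain protein of the matrix, read 1629 and 2322 against 131 to 279, and its other probe set in the set read 193 and 388 against 28.4 to 47.3. Cntn2, an adhesion molecule of axons, read 178 and 173 against 26.3 to 35.7.

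Enpep, the aminopeptidase that converts angiotensin II to angiotensin III and marks pericytes, read 502 and 1158 in the untransfected line and 80.7 and 126 in the scrambled line. S1 read 41.7 and 84.6, S4 41.6 and 102, and S5 75.4 and 107. The passage 43 array was the higher in all 5 lines. In the transfected lines the rise was 0.87 on the log2 scale (SE 0.13, limma adjusted p = 0.0201), or 1.82-fold. The call was lost without any 1 clone array (adjusted p = 0.0756 to 0.12) and with no filter (0.0988). The gene has another probe set, which went against this one: it read 376 and 377 in the untransfected line against 366 to 608 in the transfected lines. The statement that Enpep was higher in the untransfected line therefore holds for 1 of its 2 probe sets.

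Ggt5, which cleaves the glutathione conjugate leukotriene C4, read 379.7 and 638 in the untransfected line against 44.3 to 129.5. Its other probe set read 213 and 331 against 58.8 to 113, a ratio of 1.89 that was below the rule. Passage 43 was the higher in all 5 lines on both probe sets. The rise in the transfected lines passed on the second (0.43, SE 0.08, limma adjusted p = 0.0312) and not on the first (0.62, SE 0.18, adjusted p = 0.0931). Ada, the adenosine deaminase, read 135 and 122 against 30.8 to 47.5.

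Jag1, a membrane-bound ligand of Notch receptors, read 2318 and 3041 in the untransfected line and 307 and 236 in the scrambled line. S1 read 758 and 561, S4 523 and 381, and S5 653 and 534. The clones lay between the control lines, and all 6 clone arrays lay above both scrambled arrays. Jag1 was 1.05 higher on the log2 scale in the clones than in the scrambled line (SE 0.19, limma adjusted p = 0.0192), or 2.06-fold. The call was lost without either scrambled array (adjusted p = 0.0573 and 0.144), without S5 at passage 42 (0.0556), on line means (0.0833) and with no filter on low values (0.081). Jag1 also fell by 0.39 from passage 42 to 43 in the transfected lines (SE 0.06, adjusted p = 0.0195), in all 4 of them, while the untransfected line read higher at passage 43. That call was lost without any 1 clone array (adjusted p = 0.0879 to 0.12) and with the untransfected arrays included (-0.23, 0.352).

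Il6, the acute-phase cytokine, read 274 and 277 in the untransfected line and 27.9 and 29.3 in the scrambled line. S1 read 70.3 and 20.3, S4 40.3 and 24.4, and S5 68.8 and 34.7. At passage 42 the 3 clones lay above the scrambled line, and at passage 43 S1 and S4 lay below it. The clone mean did not differ from the scrambled line past the threshold (0.44, SE 0.48, limma adjusted p = 0.657). The passage difference in the transfected lines (-0.86, SE 0.27, adjusted p = 0.109) did not pass either.

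Ebf1, a transcription factor of early B cells and of fat and pericyte lineages, was at the floor of 20 on both scrambled arrays. It read 151 and 145 in the untransfected line. S1 read 37.5 and 32.8, S4 52.1 and 56.6, and S5 46.6 and 33.9. The clones were therefore at least 2.12-fold higher than the scrambled line (limma adjusted p = 0.00499). The floor makes the spread of the scrambled line 0, so its other probe sets are the better measure. They read 46.4 to 49.9 and 39.6 to 41.2 in the scrambled line, 99.8 to 137 and 101 to 217 in the clones, and 241 to 281 and 349 to 393 in the untransfected line. On these the clones were 1.32 (SE 0.14, adjusted p = 0.00274) and 1.76 (SE 0.20, adjusted p = 0.0037) higher on the log2 scale. Neither met the rule of the set, with ratios of 1.76 and 1.61. On these 3 probe sets the order was untransfected, clones, scrambled, while 3 further probe sets that name both Ebf1 and Ebf3 were at the floor on all 10 arrays. The call on the member probe set was lost without the scrambled array of passage 43 (adjusted p = 0.0528) and on line means (0.0978).

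Foxs1, a forkhead factor of pericytes and smooth muscle, read 704 and 825 in the untransfected line. S4 read 209.6 and 279.6 and was above S1 (114 and 133), S5 (135 and 137) and the scrambled line (143 and 198). This difference between clones did not pass (limma adjusted p = 0.759).

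Gzmb encodes granzyme B, the serine protease of cytotoxic granules. It read 4098 and 4330.2 in the untransfected line. The scrambled line read 353 and 360.2, S1 302 and 67.8, S4 445 and 93.7, and S5 420.3 and 89.1. At passage 42 the clones lay around the scrambled line, and at passage 43 they were the lowest arrays. The fall from passage 42 to 43 was 4.46-fold in S1, 4.75-fold in S4 and 4.72-fold in S5, while both control lines read slightly higher at passage 43. The other member probe set showed the same order. It read 2098 and 2832 in the untransfected line and 112 and 129 in the scrambled line. S1 read 93.8 and 20, S4 142 and 28.4, and S5 112 and 28.9. A further probe set, which names Gzmb and a related locus, read 132 and 139 in the untransfected line and was at the floor on the 8 other arrays. Ptprc was at or near the floor on all 10 arrays, and markers of T and natural killer cells were not examined.

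**Figure D3:**
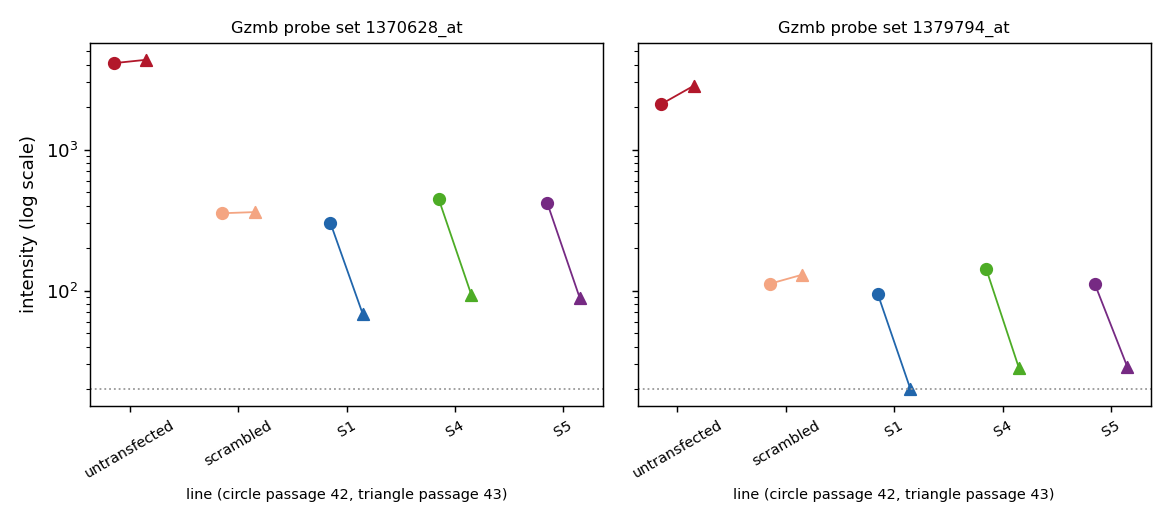
Intensity on a log axis of the 2 member probe sets of Gzmb in each line, with circles for passage 42, triangles for passage 43, a line joining the passages and a dotted line at the floor of 20. In both panels S1, S4 and S5 fall steeply between passages, and the untransfected and scrambled lines do not.

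The passage change of the 3 clones was set against that of the 2 control lines in a limma interaction fit on all 10 arrays. This comparison was chosen after the data were seen. Its control side included the untransfected arrays, by which the members were chosen, so it was not independent of the rule. The difference in passage change was -2.27 (log2) for the first Gzmb probe set (SE 0.11, limma adjusted p = 0.0114) and -2.49 for the other (SE 0.16, adjusted p = 0.0249). Gzmb was the 1 member to pass, against a background of 0.0182% of 27520 probe sets. In the fit of both passages together, the clones did not differ from the scrambled line (-1.002, SE 0.85, adjusted p = 0.55). With 3 residual degrees of freedom the interaction call was lost when any 1 array was left out (adjusted p = 0.0857 to 0.343), while the difference itself stayed between -2.30 and -2.24. Another 5 members had an unadjusted p under 0.05, also with the more negative change in the clones, against 8.35% of all probe sets in either direction. Sytl2, a Rab27 effector that tethers granules and vesicles for secretion, was the other member of this role. It read 1461 and 1593 in the untransfected line, 369.7 and 386 in the scrambled line. S1 read 239 and 123, S4 524 and 331, and S5 302 and 161. Its interaction did not pass (-0.93, SE 0.14, adjusted p = 0.277).

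Because the rule placed no condition on the order of the transfected lines, the clones could be compared with the scrambled line within them. The planned fit had no passage term. In it, 2 of the 22 members were higher in the clones (Jag1 and Ebf1) and 0 were lower at an adjusted p under 0.05 (limma, Benjamini-Hochberg). The background was 4.87% higher and 3.57% lower of 27356 probe sets tested. At an unadjusted p under 0.05 there were 6, of which 3 were lower, against 23.0% of all probe sets in either direction. With passage as a replicate block the same 2 were higher and 2 were lower (Col5a3 and Itga1), against a background of 9.61% and 7.68%. All 6 clone arrays lay above both scrambled arrays in 2 members (Jag1 and Ebf1), against 13.2% of all probe sets, and below both in 3 (Col5a3, Lsp1 and Itga1), against 12.3%. The median difference was -0.0792 over the members, from -1.002 to 1.08, and -0.00279 over all probe sets.

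**Figure D4:**
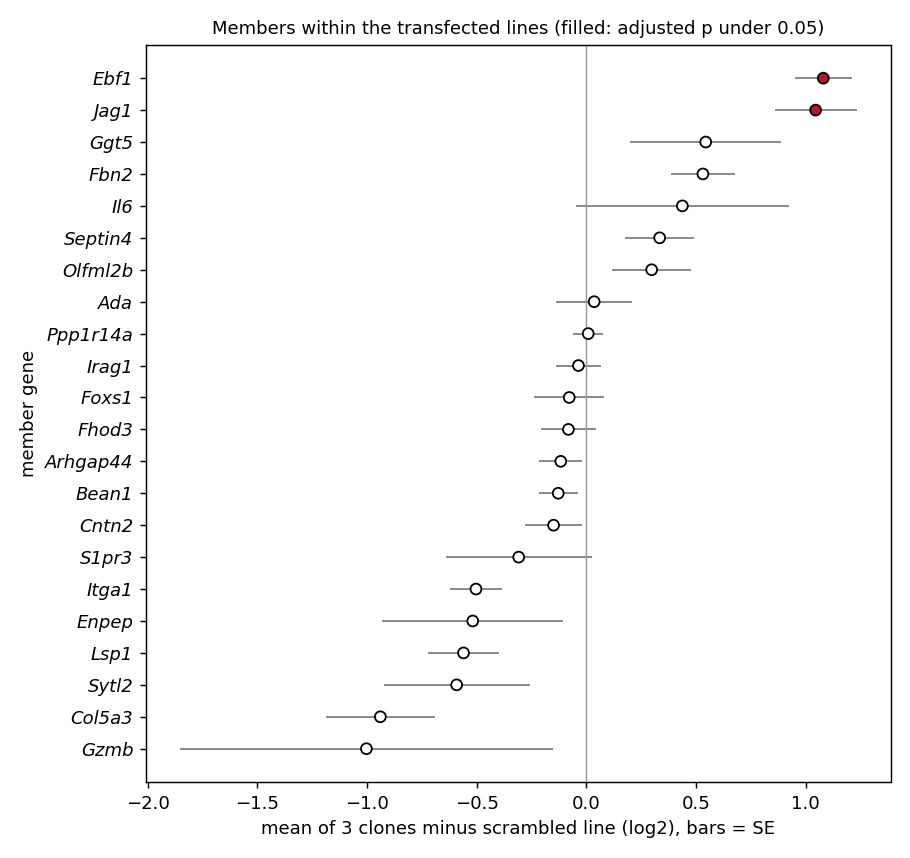
Mean of the 3 clones minus the scrambled line for each of the 22 members (points, log2 scale), with bars of 1 SE. Filled points, Ebf1 and Jag1, passed the limma test without a passage term. Col5a3 and Gzmb lie furthest to the left with open points, and the bar of Ebf1 rests on a scrambled line at the floor.

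The clones did not separate from one another in these genes past the threshold. Of 22 members, 0 passed the limma F test between S1, S4 and S5, against 0.0256% of all probe sets, and 6 had an unadjusted p under 0.05, against 3.67%. With the replicate block it was again 0, against 0.113%. The median range between clone means was 0.445 on the log2 scale in the members and 0.138 over all probe sets.

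Between passages, 1 member rose (Enpep) and 2 fell (Jag1 and S1pr3) in the transfected lines at a limma adjusted p under 0.05. The background was 3.57% higher and 4.25% lower, and 10 members had an unadjusted p under 0.05, against 24.8% of all probe sets. Each of these 3 calls was lost when any 1 clone array was left out, as given above. Over all 22 members the median change from passage 42 to 43 was 0.121 in the untransfected line and 0.0749 in the scrambled line, and -0.116 in S1, -0.124 in S4 and -0.0626 in S5. Over all probe sets the median change was 0 in the untransfected line, S1, S4 and S5, and -0.00616 in the scrambled line. In both control lines 15 members read higher at passage 43, against 7 in S1, 8 in S4 and 10 in S5. The matching counts over all probe sets were not taken, and the untransfected arrays were used by the rule.

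**Figure D5:**
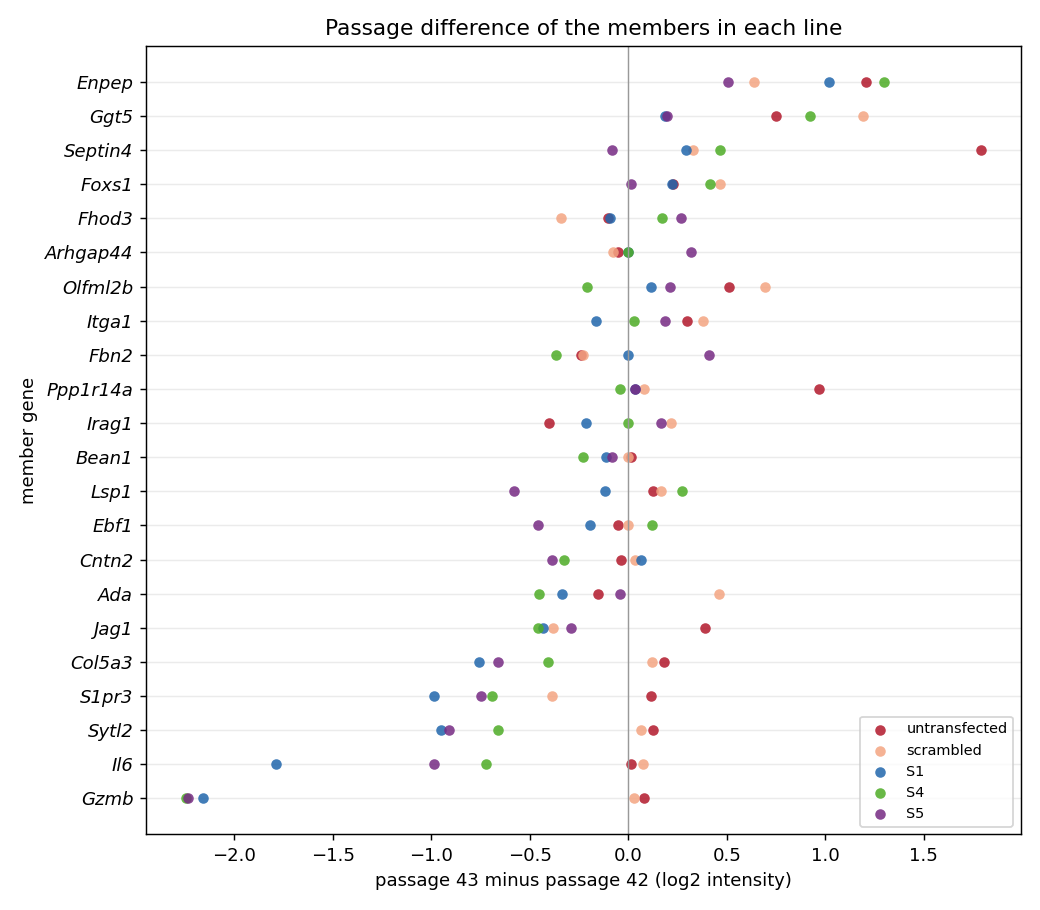
Passage 43 minus passage 42 (log2 intensity, x axis) for each of the 22 members in each of the 5 lines, shown as coloured points. Enpep and Ggt5 lie to the right of 0 in every line; in the bottom 5 rows the clones S1, S4 and S5 lie to the left, with Gzmb near -2.2, and the untransfected line lies near 0.

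The genes around the members in their pathways were examined in the comparison of the untransfected line with the other 4, by lists chosen with earlier results of these data known. All 22 members were past the threshold there, which follows from how they were chosen. The background was 4.70% higher and 3.55% lower of 27520 probe sets. Each list gene was counted on its probe set of 1 symbol with the highest mean log2 value over the arrays. The background holds all probe sets tested, so the lists and the background differ in this. Ebf1 was counted in its list on a probe set that did not meet the rule. In the list of contractile and smooth muscle genes, 14 of 35 measured genes were higher and 0 were lower (limma adjusted p under 0.05), with a median of 0.34 on the log2 scale against 0.0015 over all probe sets. Without Ppp1r14a it was 13 of 34. Examples were Fhl1, a LIM protein of muscle (1.26, SE 0.12), Lmod1, an actin nucleator of smooth muscle (1.45, SE 0.14), Nexn, an actin-binding protein (1.67, SE 0.22), and Myocd, the coactivator of serum response factor (1.24, SE 0.18). Fhl1 read 9126 and 9808 in the untransfected line and 2729 to 5418 in the transfected lines. Others, such as Tagln and Tpm1, were called higher but did not share the pattern of the members. Tagln read 16142 and 17535 in the untransfected line, 4435 and 3588 in the scrambled line and 10130 to 18208 in the clones. Tpm1 read 9554 and 10488, 2896 and 3338, and 8633 to 11024 in the same order. Without the untransfected array of passage 43, 4 genes of this list passed.

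In the list of Notch signalling, which holds Jag1, 6 of 19 were higher and 1 was lower (median 0.13). The receptors Notch1 (1.17, SE 0.14) and Notch3 (0.64, SE 0.08), the DNA-binding partner Rbpj (0.87, SE 0.14) and the target Hey1 (1.16, SE 0.12) were among the higher genes. The 1 lower gene was another receptor, Notch2 (-0.74, SE 0.13). Hey1 read 76.1 and 80.9 in the untransfected line and 28.8 to 43.9 in the transfected lines. Without the untransfected array of passage 43, 4 of the list passed in either direction.

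Of 60 collagens and matrix proteins, 11 were higher, Col5a3 among them, and 3 were lower (median 0.253). The basement membrane collagen Col15a1 (3.20) was called higher but did not share the pattern of the members. It read 1663 and 3178 in the untransfected line, 2111 and 3167 in the scrambled line and 97.1 to 158 in the clones. Collagen VI chains Col6a1 (2.13) and Col6a2 (2.20) were intermediate in the scrambled line, at 2632 and 4712 and at 2287 and 2978. Col14a1, a fibril-associated collagen, was lower in the untransfected line (-3.62). Without the untransfected array of passage 43, 4 genes passed.

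Of 51 genes of axon guidance, adhesion and junctions, the list that holds Itga1, 11 were higher and 9 were lower (median -0.059). The repulsive ligands Sema3a (-2.43) and Sema3d (-3.77) were lower in the untransfected line, and Plxnd1, a semaphorin receptor, was higher (0.77). Cdh13 (2.70) was high in both control lines. Without the untransfected array of passage 43, 5 genes of this list passed, and between 10 and 13 passed without S4 at either passage, S5 at passage 42 or the untransfected array of passage 42.

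Of 52 chemokines, cytokines and inflammatory genes, 6 were higher, Il6 among them, and 3 were lower (median 0.0194). Cxcl12 (-4.23) and its scavenging receptor Ackr3 (-4.15) were lower in the untransfected line, as was Tlr4 (-1.02), the endotoxin receptor. Ptgs1 was higher (2.75). It read 2483 and 2453 in the untransfected line, 1447 and 1154 in the scrambled line and 121 to 397 in the clones. Of 49 developmental transcription factors, 5 were higher and 7 were lower (median -0.0465). Snai1 (1.04) and Twist1 (0.76) were higher beside Ebf1, and Gata6 (-0.999) and Eya1 (-2.68) were lower. Eya1 read 56.4 and 42.2 in the untransfected line, above the scrambled line (33.3 and 25.3), and 527 to 855 in the clones. Without the untransfected array of passage 43, 2 and 5 genes of these lists passed. Among the lists without a member, TGF-beta and BMP signalling had 7 higher and 9 lower of 41 genes. Growth factors and receptors had 5 higher and 5 lower of 55, matrix proteases and inhibitors 4 and 4 of 26, and Wnt signalling 4 and 2 of 37. Quiescent stellate cell, retinoid and lipid genes had 3 higher and 3 lower of 35, interferon and antigen processing genes 2 and 0 of 27, and cell cycle genes 1 and 1 of 34.

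No member stood next to another in the order of genes in GRCr8. Of 43 genes that stood next to a member among 13239 genes in order, 0 were members. In the same comparison 6 of the 43 were higher and 2 were lower, with a median of 0.111, on probe sets chosen as for the lists. Over all 27520 probe sets, 4.70% were higher and 3.55% lower, with a median of 0.0015. Myocd, named above, is the neighbour of Arhgap44, and Ggt1 (0.85, limma adjusted p = 0.018), a paralog of Ggt5, lies beside it. The neighbours of Gzmb, Mcpt1 (-0.07) and Atp12a (-0.24), did not pass.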

How the data were processed

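The deposited table holds 1 intensity value per probe set and array, on a linear scale, which the authors made with RMA. The submitters' processing notes name this method, while its version and the setting of the scale are not given there. Of all values, 14.6% were exactly 20 and 0 were lower, and array medians lay between 97.74 and 103.7 units. The number of arrays limits the precision.

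From these, log2 intensities were computed. Probe sets at 20 on all arrays of a fit and 57 array controls were left out, which left 27356 probe sets for the 8 transfected arrays and 27520 for all 10. Tests used limma 3.58.1 in R 4.3.3 (lmFit, eBayes) with Benjamini-Hochberg adjusted p under 0.05 over all probe sets, and every adjusted p in the text comes from limma. Residual degrees of freedom were 4 for the clones against the scrambled line, 3 for passage with line as a block, 5 for the untransfected line against the other 4, and 3 for the interaction. The procedures were tested on simulated data. The plan of the tests had foreseen log2 values, and log2 was taken because the values were linear.

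Symbols came from the platform annotation (20826 probe sets with 1 symbol, 436 with several and 9780 with none). Of the first, 20758 matched the gene table of GRCr8 and 0 symbols changed. Of 22 members, 5 had several probe sets. Among the probe sets of a gene that met the rule, the one with the highest untransfected mean was described. For Ebf1, the other probe sets with its symbol alone read higher in the untransfected line but did not meet the rule. Members, lists, named genes and alternatives were chosen with earlier results of these data known. Named were the 20 members of largest ratio, those in a list or past a test, those nearest the threshold, and up to 4 other genes per list that holds a member, by smallest p. Neighbouring genes were named after their values were seen. Passage deviations of the lines correlated over probe sets in all 10 pairs of lines (r from 0.136 to 0.648). The planned tests between lines had no passage term. Pairing by passage number entered these tests only with the replicate block. Alternatives were quantile normalization, other filters, a mean-variance trend, the replicate block, line means, all 10 arrays, other thresholds of the rule and each array left out.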

Additional observations from a re-analysis of the deposited data

Results flagged for a closer look

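The passage change of Gzmb differed between the clones and the control lines on both probe sets that belong to the set. The difference in log2 change, clones minus controls, was -2.27 on the first probe set described and -2.49 on the other. It came from a limma interaction fit on 10 arrays that was chosen after the data were seen. The fit included the untransfected arrays, by which the members were chosen. All 3 clones fell and neither control line did, on both probe sets. On the second, S1 at passage 43 was at the floor of 20, so its fall there is a lower bound. Groups held 2 arrays per line, so single arrays were not examined for outliers.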

How the results depend on the processing

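The rule chose 24 probe sets. It chose 13 at a fold of 3, 15 at a minimum of 200 units, and 24 to 75 when 1 array was left out (75 without the untransfected array of passage 42 and 38 without the scrambled array of passage 43, since fewer arrays had to meet it). For the clones against the scrambled line, 2 members of 2308 probe sets called became 1 of 1496 with no filter and 4 of 4732 with the replicate block. With a stricter filter (at least 100 units on 2 of the arrays fitted) it was 1 of 2106. That filter left Ebf1 and the other members that read under 100 on all transfected arrays untested. Leaving out 1 array gave 0 to 2 members and 979 to 1555 probe sets, with 0 members without the scrambled array of passage 43. Between clones, 7 probe sets became 3 with no filter, 31 with the block and 1 to 2 with 1 array left out, and 0 members passed in each.

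For passage, 3 members of 2140 probe sets called became 1 of 822 with no filter and 1 of 1520 with all 10 arrays. With the stricter filter it was 5 of 3056, with the same members untested. Leaving out 1 array gave 0 to 7 members and 0 to 1989 probe sets, with 0 members without any 1 clone array, and 7 and 6 without the scrambled array of passage 42 and 43. For the untransfected line against the other 4, 2271 became 1256 with no filter, 4148 with the block, 255 on line means and 525 to 3486 with 1 array left out. For the interaction, 1 member of 5 probe sets became 1 of 2 with no filter and 1 of 3 with a mean-variance trend, and 0 of 0 with any 1 array left out. The replicate block changed no other member call. Of the remaining values of single genes and lists, 878 stayed on their side, 39 fell below the threshold and 19 passed it. A further 60 were list counts that moved by over 1.5 times or values past the threshold in neither fit that changed sign, and 0 called values changed sign. The causes were not tested.

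Limits were the 2 arrays per line, the 1 untransfected line, and the floor of 20 units, which leaves only an upper bound for the level of Ebf1, Arhgap44 and the second Gzmb probe set on the arrays that lie at it. Another probe set of Enpep went against the one described.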
